A study of Mus musculus with 4 samples.

Results

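The 40 genes described here are markers of the phases of cell division, read in single cells of the mouse retina and choroid. The set was a fixed list matched by symbol, and all 40 were among the 24783 genes measured. It holds 25 genes of the G2 and M phases (the preparation for mitosis and mitosis itself), 14 genes of the S phase (DNA replication), and Stmn1, which is kept apart because neurons and glia also use it.

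The data are 4 droplet libraries of wild-type mice, 1 library per group, made from choroid-sclera and retina that were digested with papain and mixed. The mice were 6 to 8 weeks old (young) or over 18 months old (aged). Each age has a control library without lesions and a CNV library taken 3 days after laser burns, which rupture Bruch's membrane and start choroidal neovascularisation (CNV), the growth of choroidal vessels under the retina. Rods, the most frequent photoreceptors, were depleted from the retinal cells with an antibody against CD73, and the number of animals behind each library is not given in the sources used here. With 1 library per group no difference was tested between animals. Every interval is a 95% interval that covers counting error only.

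A dividing cell copies its DNA in S phase. The MCM helicase, loaded onto origins by Cdc6 and started with the GINS complex, unwinds the DNA, Pcna is the sliding clamp of the polymerases, and the enzymes of the Rrm and Tyms genes supply nucleotides. In G2 and M the kinase Cdk1 with cyclins A and B drives the cell into mitosis, kinesins and their partners build the spindle, kinetochore proteins attach chromosomes to it, and the Bub1 checkpoint holds the cell until they are attached. Cdc20 and Ube2c then mark the cyclins for destruction. In the adult eye photoreceptors and other retinal neurons no longer divide, whereas fibroblasts, vessel cells, immune cells and surface epithelium can.

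The young libraries held 11427 (control) and 10867 cells (CNV) and the aged ones 6676 (control) and 7731 cells (CNV), and 4 values in a row are given in this order throughout. Total counts of unique molecular identifiers (UMIs, one per captured RNA molecule) were 68966431, 111908519, 50848238 and 69011793, and median UMIs per cell were 2593, 7223, 6427.5 and 6875. After removal of predicted doublets 35591 cells remained. Any 2 libraries shared between 14 and 29 cell barcodes. Classes are clusters made without the cell cycle genes and named "-like" after marker genes, so that a dividing cell could stay with its own kind. Levels are counts per 1000000 UMIs of the class in a library (CPM). Intervals of CPM and of their ratios treat each UMI as a separate draw. Many UMIs of these genes came from the same few cells, so these intervals leave out the variation between cells and are too narrow.

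The promoters of these genes carry different short motifs in the 2 phases. In the RefSeq promoter windows (250 bases before to 50 after the start, build GRCm38.p6), 34 of the 40 members were found. The letters TTTGAA, the cell cycle homology region (CHR) bound by the DREAM and MuvB complexes, were present on either strand in 17 of 22 G2/M promoters (77.3%), in 1 of 12 S promoters (8.33%) and in 18.1% of all 27025 promoters. The E2F letters GCGGGAA were present in none of the 22 G2/M promoters, in 5 of the 12 S promoters (41.7%) and in 4.66% of all promoters. CCAAT, the box bound by NF-Y, was found in 86.4%, 75.0% and 37.9%. No match overlaps a match of another motif in the sequences shown, and a match is a description of the letters, not a bound site. The windows of 4 members are printed because the results below turn on these genes or show the contrast between the phases: Cdk1 (chr10:69352863-69353162, minus strand) and Ccnb2 (chr9:70421505-70421804, minus strand), both G2/M, Bub1b (chr2:118597961-118598260, plus strand), a G2/M gene also found in photoreceptor classes, and Mcm3 (chr1:20820263-20820562, minus strand), an S gene. Capitals mark the CHR, CCAAT and E2F letters on either strand.
Cdk1: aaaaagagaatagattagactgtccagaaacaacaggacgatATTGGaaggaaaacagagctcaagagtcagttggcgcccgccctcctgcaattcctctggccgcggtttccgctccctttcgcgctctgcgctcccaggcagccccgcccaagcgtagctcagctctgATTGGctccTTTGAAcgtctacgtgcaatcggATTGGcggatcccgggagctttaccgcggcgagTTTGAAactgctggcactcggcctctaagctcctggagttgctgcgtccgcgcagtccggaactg
Ccnb2: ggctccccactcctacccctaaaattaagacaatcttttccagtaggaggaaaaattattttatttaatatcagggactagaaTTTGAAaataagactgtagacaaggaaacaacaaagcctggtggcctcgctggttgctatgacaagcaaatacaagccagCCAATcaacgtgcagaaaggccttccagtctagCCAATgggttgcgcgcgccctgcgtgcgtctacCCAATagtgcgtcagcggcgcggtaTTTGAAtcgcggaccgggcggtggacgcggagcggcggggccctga
Bub1b: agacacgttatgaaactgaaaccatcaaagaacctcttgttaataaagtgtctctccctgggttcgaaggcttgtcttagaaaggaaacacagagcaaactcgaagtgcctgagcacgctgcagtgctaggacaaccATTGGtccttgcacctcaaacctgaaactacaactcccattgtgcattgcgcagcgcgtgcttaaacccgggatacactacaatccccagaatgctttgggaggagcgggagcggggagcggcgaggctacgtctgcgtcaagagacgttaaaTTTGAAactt
Mcm3: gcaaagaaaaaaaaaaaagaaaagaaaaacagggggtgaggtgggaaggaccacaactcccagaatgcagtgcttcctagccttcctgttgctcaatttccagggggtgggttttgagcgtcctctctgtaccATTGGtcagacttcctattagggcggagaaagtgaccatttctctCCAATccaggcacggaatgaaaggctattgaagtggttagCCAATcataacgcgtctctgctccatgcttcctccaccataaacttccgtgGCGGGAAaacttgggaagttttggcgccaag
The Ccnb2 window holds TTTGAA and CCAAT, as does that of Cdk1, where the box is read as ATTGG on the printed strand. The Bub1b window also has both, whereas the Mcm3 window has CCAAT and the E2F letters and no TTTGAA.

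Most G2/M members were concentrated in a small set of cells. Over all libraries 1021 of 35591 cells (2.87%) had UMIs of at least 3 of the 25 G2/M members, the measure used here for G2/M signal in a cell. The measure assigns no phase, and some rod-like cells also passed it. The 1021 cells held 11.4% of all UMIs. They also held 98.4% of the UMIs of Bub1 (a checkpoint kinase), 98.2% of those of Hmmr (a spindle protein), 97.2% of Cenpf (a kinetochore protein), 96.4% of Top2a (the topoisomerase that untangles chromosomes) and 95% of Mki67 (the coat protein of mitotic chromosomes known as Ki-67). Since these members help to define such cells, the shares describe how members go together and test nothing. Cells with exactly 1 G2/M member numbered 7142, with 2 members 1348 and with 3 members 316, while 269 cells had 20 to 25 of the 25. Median UMIs per cell were 7661.5, 12040 and 20783 for 1, 2 and 3 members and 36846 for 20 to 25, so depth moved with the number of members and its part was not tested.

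**Figure D1:**
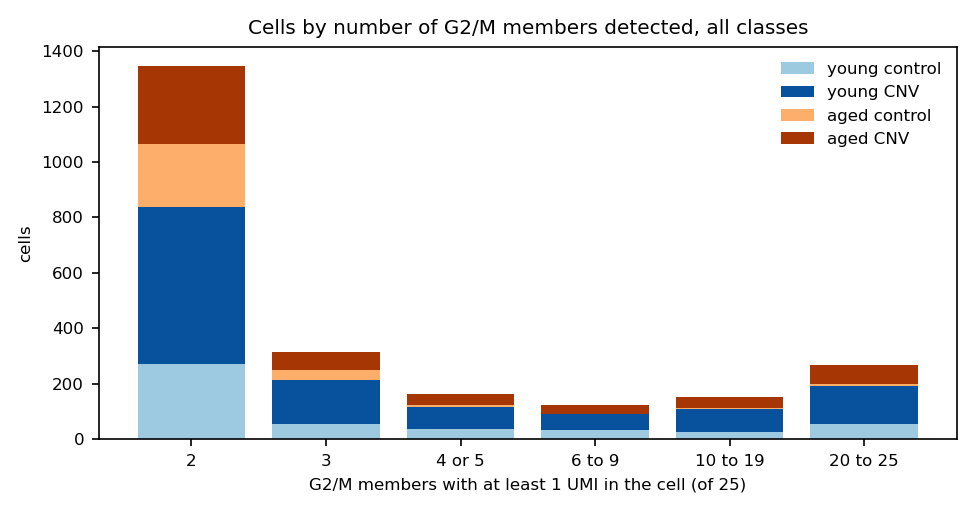
Number of cells by the number of the 25 G2/M members detected in a cell, from 2 members on, stacked over all 4 libraries. The bars stand for 2, 3, 4 or 5, 6 to 9, 10 to 19 and 20 to 25 members, so they span unequal ranges and their heights are not directly comparable. The counts drop from 1348 cells with 2 members to 316 with 3, and 269 cells at the right end carried 20 to 25 members.

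The S members differed from each other in this respect. Rrm2 (the small subunit of ribonucleotide reductase, which makes deoxynucleotides), Tk1 (thymidine kinase) and Uhrf1 (which carries DNA methylation over to the new strand) had 88.0%, 87.3% and 84.2% of their UMIs in the 1021 cells. Pcna had 25.9%, Mcm4 26.7% and Gins2 33.0%, and Stmn1, a binder of tubulin, had 60.4%. Among the G2/M members Bub1b had 35.9%, the lowest share of the 25, and Cenpa (the histone of the centromere) 73.5%, the next. A UMI of Pcna was found in 24.5% of the cells outside the set against 0.966% for Mki67.

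**Figure D2:**
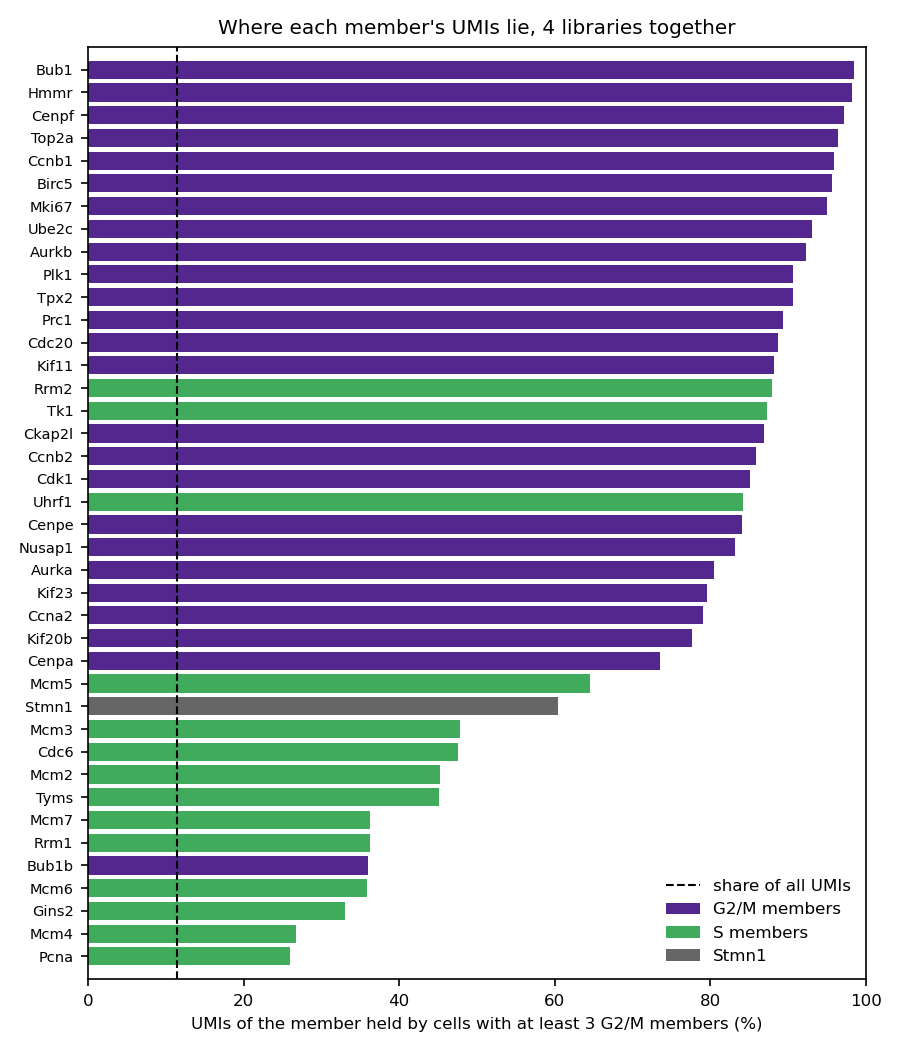
Percent of each member's UMIs that lay in the 1021 cells with at least 3 G2/M members, over all 4 libraries, coloured by phase. The dashed line marks 11.4%, the share of all UMIs in those cells; Bub1 reached 98.4% and Pcna 25.9%.

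The share of kept cells with at least 3 G2/M members was 1.86% in the control and 4.87% in the CNV library of young mice, and 0.824% and 3.30% in those of aged mice. The mix of classes differed between the libraries. Rod-like cells made up 52.45%, 26.65%, 18.96% and 10.08% of kept cells, and epithelial-like cells 2.23%, 2.39%, 0.467% and 5.22%. The part of this mix in the shares of all kept cells was not tested. The cells with at least 3 G2/M members belonged to different classes in each library. In young control 122 of the 207 such cells (58.9%) were epithelial-like, and the next named class was fibroblast-like with 18. In young CNV, with 515 such cells, fibroblast-like cells gave 131 (25.4%), macrophage/monocyte-like cells 110 (21.4%) and epithelial-like cells 108 (21.0%), followed by 43 endothelial-like cells (8.35%). In aged control the 53 such cells were spread over many classes, with 10 macrophage/monocyte-like cells as the largest named group. In aged CNV 80 of 246 (32.5%) were epithelial-like, 31 (12.6%) fibroblast-like, 23 endothelial-like, 22 macrophage/monocyte-like and 18 (7.32%) microglia-like. Cells in unnamed clusters gave 29, 22, 9 and 15.

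**Figure D3:**
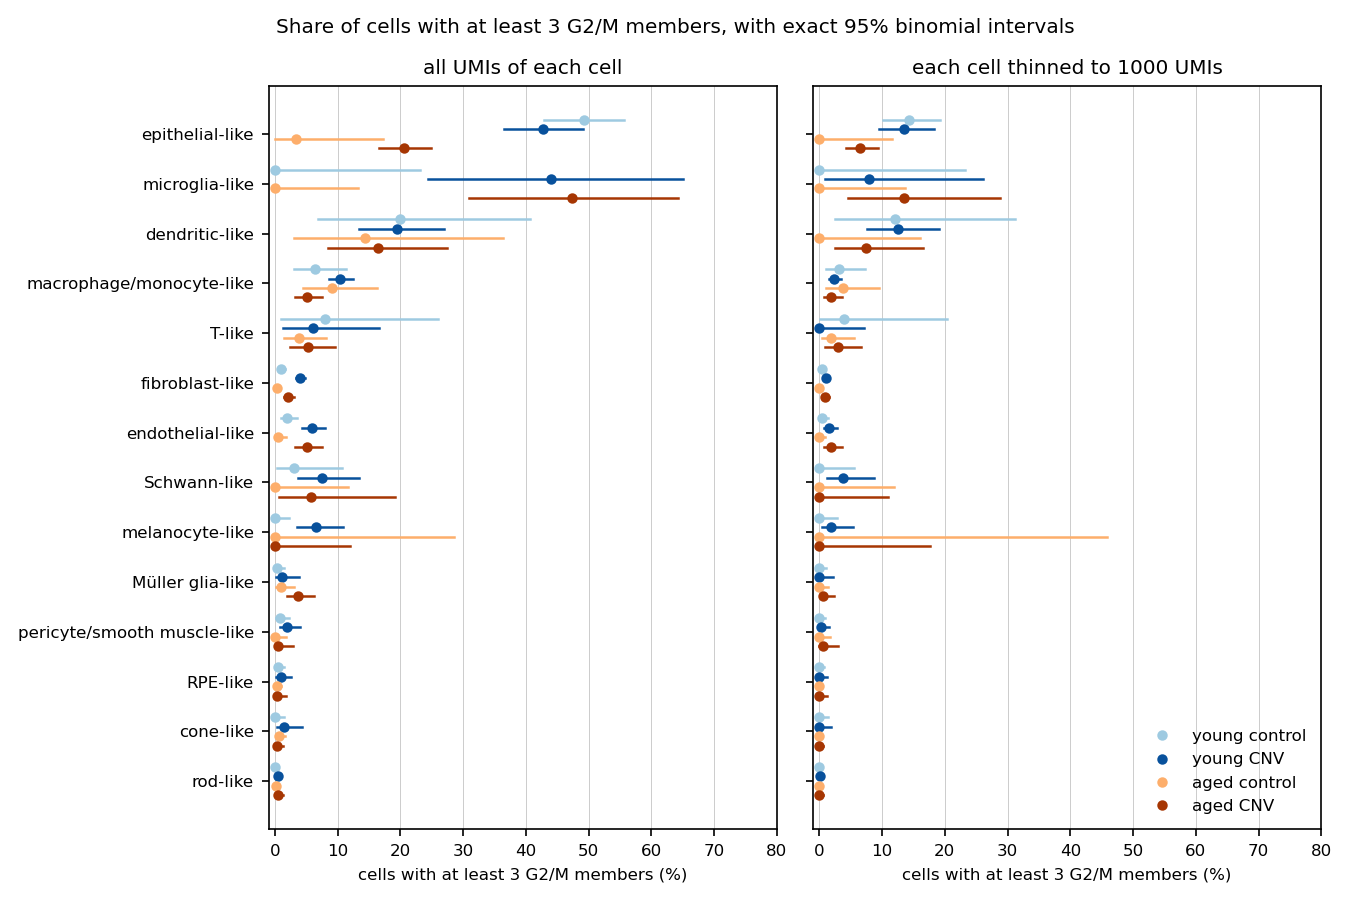
Percent of cells with at least 3 of the 25 G2/M members by class and library, with exact Clopper-Pearson 95% intervals, from all UMIs and after each cell was thinned to 1000 UMIs. Microglia-like cells reached 44.0% and 47.4% after laser with 0 such cells in both controls, and thinning lowered the values to 8.00% and 13.5%.

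Fibroblast-like cells (marked by collagens, Dcn and Lum) had higher G2/M levels after laser at both ages and little difference in S members. At least 3 G2/M members were found in 18 of 1840 cells (0.978%, 0.581 to 1.54), 131 of 3240 (4.04%, 3.39 to 4.78), 3 of 1173 (0.256%, 0.0528 to 0.746) and 31 of 1473 (2.10%, 1.43 to 2.97). The intervals of the CNV libraries did not overlap those of the controls at the young age or the aged one. After thinning to 1000 UMIs the fibroblast-like shares were 0.384%, 1.03%, 0% (0 of 1162 cells, which allows up to 0.258%) and 0.892%. The limit of a share of 0, here and below, is 3 over the number of cells. The intervals overlapped in young mice (0.154 to 0.789 and 0.707 to 1.44) and not in aged mice. Cells with Mki67 or Top2a made up 1.68%, 5.65%, 0.341% and 3.05% of the fibroblast-like class, and 0.548%, 1.24%, 0% and 1.10% after thinning. Rod-like cells, which should lack both, had them in 0.257%, 0.851%, 0.246% and 0.931% of cells and in 0.189%, 0.549%, 0.0859% and 0.581% after thinning, at median depths of 1328, 1942, 3286 and 2700.5 UMIs against 9996, 11919.5, 8713 and 8258 in fibroblast-like cells. The aged control share was therefore close to that of the rod-like class, although the fibroblast-like cells were deeper. The rod-like shares were also higher in CNV than in control at both ages. How far such a background enters the fibroblast-like differences was not tested.

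Summed over the 25 G2/M members, fibroblast-like cells had 81.1, 292, 20.7 and 237 CPM. The CNV library was 3.61 times the control in young mice (3.42 to 3.80) and 11.4 times in aged mice (10.0 to 13.1). The 14 S members summed to 177, 200, 162 and 195 CPM, ratios of 1.13 (1.09 to 1.17) and 1.2 (1.13 to 1.28). In the fibroblast-like class cells with at least 3 G2/M members were deep, with a median of 34581 UMIs in young CNV against 11499 in the others, and in the thinned cells the ratio over all 40 members was 1.27 in young and 1.40 in aged mice in place of 1.92 and 2.48. Thinning weights every cell alike, and the direction was the same.

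Single members in fibroblast-like cells followed the sum. Mki67 had 6.21, 20.5, 0.359 and 24.9 CPM (125, 967, 4 and 357 UMIs), which gave ratios of 3.30 (2.74 to 4.01) and 69.4 (26.9 to 256). Top2a had 11.3, 25.8, 0.179 and 27.0 CPM (227, 1216, 2 and 387 UMIs), ratios of 2.29 (1.98 to 2.65) and 150 (41.3 to 1246). In both genes the 2 CNV libraries were close, and aged control had almost no UMIs. Ccnb1, cyclin B1, had 0.695, 6.98, 0 and 4.53 CPM and was 10.0 times higher after laser in young mice (5.89 to 18.6). Ube2c, the ubiquitin carrier of the anaphase complex, had 3.58, 21.1, 0 and 10.6 CPM, 5.91 times higher in young (4.65 to 7.61) and at least 39.4-fold higher in aged mice, where the control had 0 UMIs and 3 were taken as the floor. Cenpf had 3.78, 20.6, 0.269 and 16.4 CPM and was 5.46 times higher in young mice (4.32 to 6.99).

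The S members of the fibroblast-like class differed from each other. Tk1 had 2.24, 7.40, 0.628 and 5.65 CPM and Uhrf1 1.64, 3.94, 0.718 and 6.06, higher after laser at both ages. Rrm2 had 4.52, 8.29, 0.179 and 4.81 CPM. Pcna moved the other way, with 58.1, 48.9, 40.5 and 29.6 CPM, ratios of 0.842 (0.785 to 0.904) and 0.731 (0.639 to 0.836). Mcm4, a helicase subunit, had 22.5, 17.7, 21.5 and 21.6 CPM. Stmn1 had 32.1, 65.5, 9.33 and 45.4 CPM, ratios of 2.04 (1.87 to 2.22) and 4.86 (3.95 to 6.04). Over all classes and libraries together, Tk1, Uhrf1 and Rrm2 of the 5 S members given here had most of their UMIs in cells with at least 3 G2/M members. Pcna and Mcm4 had most of theirs outside such cells. These shares are not given for the fibroblast-like class alone.

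A member was counted as changed in size when its CPM differed at least 2-fold between 2 libraries that together held at least 20 of its UMIs. In fibroblast-like cells all 40 passed the UMI minimum in both laser comparisons. After laser 28 were at least 2-fold higher in young mice (25 of 25 G2/M, 2 of 14 S, namely Tk1 and Uhrf1, and Stmn1) against 4.76% of 16938 genes, and 0 were lower against 6.27%. In aged mice 30 were higher (25 of 25 G2/M, Mcm5, Rrm2, Tk1 and Uhrf1 of the S members, and Stmn1) against 6.62% of 15487 genes, and 0 lower against 2.6%. The median log2 ratio of the 25 G2/M members was 1.86 in young and 3.54 in aged mice, where members with 0 UMIs stand at their bound, against -0.09 and -0.06 over all genes. Of the 40 members 37 reached 20 UMIs in young control alone, but only 14 did in aged control.

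The other cell cycle genes, 105 in 8 lists, were compared in the same fibroblast-like cells, where 4.76% of all genes in young and 6.62% in aged mice were at least 2-fold higher after laser. None of the 9 G1 cyclins and kinases, which drive entry into the cycle, was 2-fold higher or lower at either age. Ccnd1 (cyclin D1) had 58.2, 55.4, 67.4 and 88.5 CPM. Of 14 other spindle and cytokinesis genes 11 were higher in young and 13 in aged mice, among them Kif2c, a kinesin that takes microtubules apart (20.8 times, 6.97 to 102, in young). Of 15 other kinetochore and checkpoint genes 9 and 11 were higher, led in young mice by Cenpm (4.12 times, 2.72 to 6.49). Of 13 other mitotic entry and exit genes 6 were higher in young mice, among them Cks2, a binder of Cdk1, with 8.49 and 30.3 CPM, and 6 of 12 in aged mice. Of 12 condensin and mitotic chromatin genes 1 (Ncapg, a condensin subunit) and 4 (Ncapg, Asf1b, Hells and Ncaph) were higher, and of 22 other replication genes 2 (Gmnn, the inhibitor of origin licensing, and Pole) and 7. Of 10 cell cycle transcription factors 1 (E2f8) and 4 (E2f8, Mybl2, E2f7 and E2f2, the last with an interval that reaches below 1) were higher. Among 10 CDK inhibitors and pocket proteins, brakes of the cycle, Cdkn2b was 20.9 times (11.9 to 40.6, from 0.596 to 12.4 CPM) and Cdkn2a 14.5 times higher (6.10 to 45.3) in young mice, and Cdkn2a alone was higher in aged mice (4.66 times, 1.79 to 15.4). No gene of these lists was 2-fold lower after laser in fibroblast-like cells.

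Within the fibroblast-like class the cells were unevenly spread over clusters. In the cluster led by Myoc, Piezo2 and Chil1, 6 of 399 (1.5%), 70 of 590 (11.9%), 2 of 445 (0.449%) and 24 of 415 (5.78%) fibroblast-like cells had at least 3 G2/M members. In the cluster led by Clec3b, Dpt, Tnfaip6 and Pi16 these were 12 of 393 (3.05%), 53 of 1453 (3.65%), 1 of 141 (0.709%) and 5 of 519 (0.963%). In the cluster led by Pappa2 and Pgf they were 0 of 681, 3 of 685, 0 of 469 and 1 of 352. The Myoc cluster held 70 of the 131 and 24 of the 31 such fibroblast-like cells of the CNV libraries, and the Clec3b and Pi16 cluster took up more of the class in the CNV libraries.

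Endothelial-like cells (marked by Cdh5, Pecam1 and Kdr), which line the vessels, also had higher G2/M levels after laser at both ages. At least 3 G2/M members were found in 10 of 524 (1.91%, 0.919 to 3.48), 43 of 721 (5.96%, 4.35 to 7.95), 2 of 414 (0.483%, 0.0586 to 1.73) and 23 of 452 cells (5.09%, 3.25 to 7.54). The intervals of CNV and control did not overlap at either age, and those of the 2 CNV libraries did. Thinned endothelial-like cells had shares of 0.393%, 1.57%, 0% (0 of 389, which allows up to 0.771%) and 1.82%, and the intervals of CNV and control overlapped at both ages. Of the 43 and 23 cells, 38 and 21 were in the cluster led by Plvap and Igfbp3, with 482 and 374 cells. The cluster led by Gpihbp1 and Fabp4 had 5 of 239 and 2 of 78. Cells with Mki67 or Top2a made up 0.954%, 5.13%, 0.483% and 5.75% of endothelial-like cells.

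The 25 G2/M members summed to 130, 379, 32.6 and 491 CPM in endothelial-like cells, ratios of 2.91 in young (2.68 to 3.18) and 15.1 in aged mice (12.1 to 18.9). The S members summed to 222, 305, 165 and 346 CPM, ratios of 1.37 (1.28 to 1.48) and 2.10 (1.88 to 2.34). In endothelial-like cells with at least 3 G2/M members the median depth was 33183 UMIs in young CNV and 21737 in aged CNV against 6543 and 5488 in the other cells. Over all 40 members the laser ratios of 1.65 and 3.60 were 1.09 and 1.79 in thinned cells.

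Mki67 had 7.29, 27.4, 0.379 and 58.4 CPM in endothelial-like cells (37, 197, 1 and 195 UMIs), 3.76 times higher in young (2.64 to 5.5) and 154 times in aged mice, where the 1 UMI of the control leaves an interval from 27.3 to 6118. Birc5 (survivin, a partner of the Aurora B kinase) had 4.73, 35.8, 0 and 38.6 CPM, 7.57 times higher in young (4.97 to 12) and at least 34.0-fold in aged mice. Ccnb2 had 3.35, 21.3, 0.758 and 26.0 CPM, 6.36 times in young (3.84 to 11.2). Hmmr had 1.58, 11.7, 0 and 12 CPM, 7.42 times in young (3.60 to 17.7). The 2 CNV libraries were alike in these 3 genes, and Mki67 was highest in aged CNV. Stmn1 had 181, 194, 89.4 and 196 CPM, with a ratio of 1.07 in young (0.984 to 1.16) and 2.19 in aged mice (1.89 to 2.56). Pcna had 95.5, 94.8, 51.9 and 61.7 CPM, lower in both aged libraries and little different after laser.

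In endothelial-like cells all 40 members could be compared in young mice, of which 26 were at least 2-fold higher after laser (19 of 25 G2/M and 7 of 14 S) against 4.66% of 12928 genes, and 0 lower against 5.08%. The 6 G2/M members under 2-fold were Cenpf, Aurka, Plk1, Kif20b, Kif23 and Cdc20. In aged mice 36 could be compared and 30 were higher (21 of 21 G2/M, 8 of 14 S and Stmn1) against 6.45% of 12023 genes, 0 lower against 2.79%, but only 9 of the 36 reached 20 UMIs in the control alone. The median log2 ratio over the members compared was 1.29 and 2.84 against -0.07 and -0.03 over all genes. Of the other lists in endothelial-like cells, 9 of 13 spindle and cytokinesis genes, 9 of 14 kinetochore and checkpoint genes and 4 of 10 mitotic entry and exit genes (Cdca8, Cks2, Cks1b and Cdca3) were higher in young mice, with 0 of 8 G1 cyclins and kinases. Cks2 had 10.8 and 37.3 CPM (3.44 times, 2.57 to 4.69). In aged mice 9 of 10 condensin and mitotic chromatin genes were higher, among them Hmgb2 with 38.3 and 114 CPM (2.99 times, 2.39 to 3.76), and Cdk6, a G1 kinase, was the 1 of 8 in its list (2.11 times, 1.5 to 3.00).

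Microglia-like cells, the resident macrophages of the retina, were few, with 14, 25, 26 and 38 cells, and had G2/M members in the CNV libraries almost alone. At least 3 were found in 0 of 14 (which allows up to 21.4%), 11 of 25 (44.0%, 24.4 to 65.1), 0 of 26 (up to 11.5%) and 18 of 38 cells (47.4%, 31.0 to 64.2). After thinning, microglia-like shares were 0%, 8.00% (0.984 to 26.0), 0% and 13.5% (4.54 to 28.8), and these intervals overlapped those of the controls. The G2/M members had 6, 837, 6 and 1526 UMIs, or 49.5, 1393, 19 and 1593 CPM, ratios of 28.1 (12.9 to 76.9) and 83.7 (38.4 to 229). The S members had 124, 884, 108 and 785 CPM, ratios of 7.14 (4.29 to 12.9) and 7.28 (5.17 to 10.6). In this class both phases were higher after laser. Of the microglia-like cells with at least 3 G2/M members in aged CNV, 83.3% also had at least 3 S members against 45.0% of the others.

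Mki67 had 0, 183, 0 and 229 CPM in microglia-like cells (0, 110, 0 and 219 UMIs), at least 7.40-fold higher in young and at least 24.0-fold in aged mice. Top2a had 0, 210, 6.34 and 206 CPM. Stmn1 had 16.5, 363, 9.51 and 349 CPM, from 2, 218, 3 and 334 UMIs. Pcna had 74.2, 238, 47.6 and 128 CPM, 3.21 times higher in young (1.64 to 7.15) and 2.70 times in aged mice (1.57 to 4.97). Mcm6 had 0, 69.9, 6.34 and 73.1 CPM and Ube2c 0, 63.2, 0 and 112. All 6 genes were higher in both CNV libraries than in either control. Of the 32 microglia-like members that could be compared in young mice 18 were at least 2-fold higher against 17.1% of 5551 genes, and 0 were lower against 17.5%. Of 37 in aged mice 37 were higher against 13.2% of 7890 genes, with 11.5% of genes lower. None of the 40 reached 20 UMIs in a control library, so every member compared had passed through its CNV library. Microglia-like cells in the CNV libraries were deeper, with medians of 17955 and 23798 UMIs against 7663 and 10070 in the controls, and their part in the shares was not tested. P2ry12, a marker of resting microglia, had 1922, 349, 726 and 345 CPM, lower after laser at both ages. The summed microglia markers were 3748 CPM in young CNV cells with at least 3 G2/M members and 7025 in the other cells.

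Macrophage/monocyte-like cells (marked by Cd68, Csf1r and Adgre1) already had G2/M members in the controls. At least 3 were found in 10 of 158 (6.33%, 3.08 to 11.3), 110 of 1060 (10.4%, 8.61 to 12.4), 10 of 109 (9.17%, 4.49 to 16.2) and 22 of 436 cells (5.05%, 3.19 to 7.54), with overlapping intervals at each age. Thinned shares were 3.21%, 2.39%, 3.81% and 1.86%. The G2/M members summed to 517, 431, 482 and 264 CPM in macrophage/monocyte-like cells, ratios of 0.834 (0.773 to 0.900) and 0.547 (0.494 to 0.606), while the S members summed to 298, 314, 287 and 293 CPM. The share was higher and the CPM lower after laser in young mice, so no order is read from either. Different clusters held the class in each library: the cluster led by Fcgr1, Ms4a4c and Aif1 had 15, 391, 9 and 124 cells, the cluster led by Arg1, Spp1 and Gpnmb 1, 207, 37 and 122, the one led by Lilra5 and Cd86 77, 107, 30 and 29, and the one led by Cd163 and Folr2 53, 252, 14 and 21. The cluster led by Retnla and Lyz1 had 12, 103, 8 and 20 cells. Some clusters scored highest for macrophage/monocyte markers but stayed unnamed, since a second class scored too close. They were led by Chil3 and Saa3 (8, 10, 48 and 50 cells), Mucl1 and Lyz1 (30, 13, 9 and 30), Adgre4 and Treml4 (9, 8, 30 and 30), and Atp6v0d2 and Hpgd (25, 12, 12 and 21). The values of the class leave these cells out, more of them relative to the class in aged control than in young CNV. The cluster led by Cxcl13 and Cd209d had macrophage/monocyte-like cells in the aged libraries alone, 11 in control and 120 of the 436 in CNV, of which 0 and 2 had at least 3 G2/M members. In the Fcgr1 cluster 0 of 15, 42 of 391, 0 of 9 and 8 of 124 macrophage/monocyte-like cells had at least 3 G2/M members, in the Arg1 cluster 0 of 1, 33 of 207, 3 of 37 and 9 of 122, and in the Cd163 cluster 2 of 53, 9 of 252, 1 of 14 and 0 of 21. In young CNV the Arg1 cluster had the highest of these 3 shares (15.9%) and the Cd163 cluster the lowest (3.57%). In both controls most of the cells with at least 3 G2/M members lay in the Lilra5 and Retnla clusters, whose shares are not given here. When the clusters were made with the cell cycle genes the ratio over all 40 members turned from 0.946 to 1.36 in young and from 0.713 to 1.2 in aged mice. The class did not hold the same set of cells there. A Chil3 cluster (8, 10, 45 and 55 cells) was then named macrophage/monocyte-like. The dendritic-like cluster led by Xcr1 and Clec9a had 111 cells in place of 55, with Top2a and Mki67 among its leading genes. The part of these differences in the ratios was not tested. The young ratio was also above 1 with TMM scaling (1.12), median-of-ratios scaling (1.11), own-marker cells (1.14) and thinning (1.02).

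Of the members in macrophage/monocyte-like cells Mki67 had 83.8, 53.2, 81.7 and 43.6 CPM, ratios of 0.634 (0.524 to 0.774) and 0.534 (0.415 to 0.690). Stmn1 had 97.4, 118, 102 and 63.9 CPM. Ckap2l, a spindle protein, had 15, 9.51, 28.1 and 5.77 CPM, 0.205 times the control in aged mice (0.117 to 0.356), and Nusap1, which bundles microtubules, had 18.4, 12.9, 17.9 and 5.30 CPM. Uhrf1 had 10.2, 7.67, 6.81 and 16.6 CPM and was higher in aged mice, 2.44 times the control (1.17 to 5.87). In young mice 40 members could be compared, of which Aurka and Rrm2 were at least 2-fold higher (intervals that reach below 1) against 6.58% of 12757 genes, and Kif11, the motor that separates the spindle poles, lower (0.442, 0.319 to 0.623) against 9.13%. In aged mice 3 of 37 were higher (Ccnb1, Uhrf1 and Rrm2) against 6.42% of 11007 genes, and 7 were lower, all G2/M members, against 5.4%. The young counts were near or below the background.

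Epithelial-like cells (marked by Krt5, Krt14 and Krt15) often had at least 3 G2/M members in both young libraries, with the highest share of any class in young control. At least 3 G2/M members were found in 122 of 248 (49.2%, 42.8 to 55.6), 108 of 253 (42.7%, 36.5 to 49.0), 1 of 30 (3.33%, 0.0844 to 17.2) and 80 of 389 cells (20.6%, 16.7 to 24.9). Thinned epithelial-like shares were 14.2%, 13.5%, 0% and 6.46%. The G2/M members summed to 1347, 1411, 33.0 and 824 CPM, a laser ratio of 1.05 in young (1.02 to 1.07) and 25 in aged mice (16.8 to 39.0). The aged control value rests on 30 epithelial-like cells and 24 UMIs. Krt12, the keratin of the corneal surface, had 2842, 3890, 0 and 0 CPM in the 4 libraries, so the epithelium that entered the young and aged libraries differed in a defining marker; its part in the differences between ages was not tested. Mki67 had 103, 116, 0 and 84.6 CPM, Top2a 151, 168, 1.37 and 101, and Cdk1 62.1, 64.1, 0 and 13.9. None of the 40 members was 2-fold higher or lower in young mice, against 1.88% and 4.14% of 13433 genes. In aged mice 35 of 40 were higher against 11.1% of 12916 genes and 0 lower against 3.53%, of which 1 had 20 UMIs in the control.

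**Figure D4:**
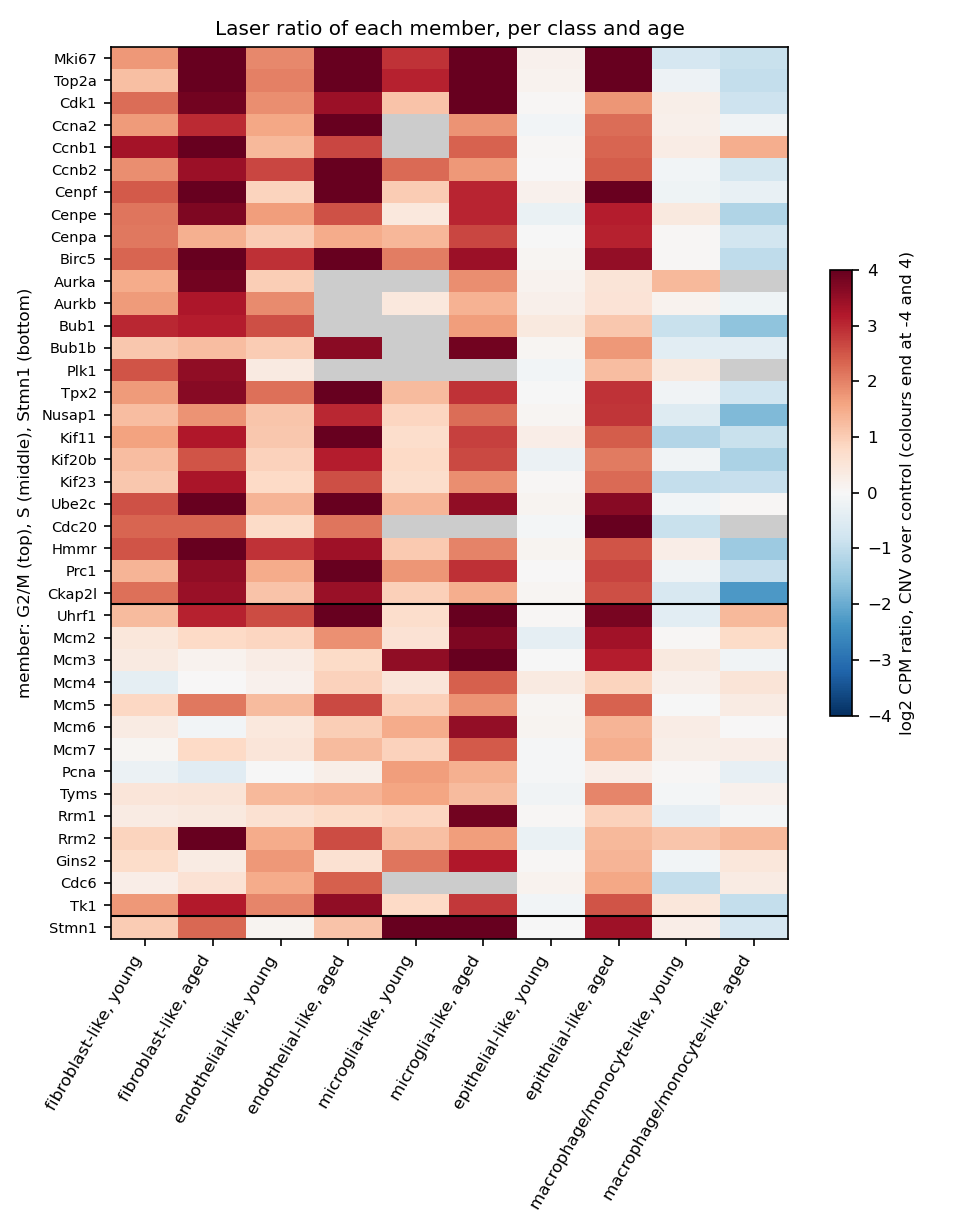
Log2 ratio of CPM, CNV over control, for each of the 40 members in 5 classes at both ages; grey marks members with under 20 UMIs over the 2 libraries, and ratios against 0 UMIs are drawn at their bound. The G2/M rows are higher after laser in fibroblast-like and endothelial-like cells at both ages and near 0 in young epithelial-like cells.

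Cells with G2/M members were also found in other classes. B-like cells had 0 of 12, 0 of 13, 2 of 26 and 8 of 35 with at least 3, and the last share, 22.9% (10.4 to 40.1), was 2.86% after thinning. Dendritic-like cells had shares of 20%, 19.4%, 14.3% and 16.4% with at least 3 (5 of 25, 28 of 144, 3 of 21 and 11 of 67). Within dendritic-like cells the cluster led by Xcr1 and Clec9a, markers of conventional type 1 dendritic cells, had 4 of 8, 13 of 30, 1 of 6 and 5 of 11, and the cluster led by Cd209a 1 of 17, 14 of 101, 2 of 15 and 6 of 43. T-like cells had 2 of 25, 3 of 50, 6 of 156 and 9 of 173. Pericyte/smooth muscle-like cells had 3 of 401, 7 of 363, 0 of 212 and 1 of 188, and G2/M sums of 66.2, 264, 37.8 and 247 CPM, where the aged CNV value came with 1 such cell. RPE-like cells, the pigment epithelium next to the lesion, had 2 of 478, 3 of 334, 4 of 1029 and 1 of 321, and G2/M sums of 42.6, 41.6, 35.1 and 25.1 CPM. The RPE-like shares of 0.418%, 0.898%, 0.389% and 0.312% had intervals that overlapped those of the rod-like class, with shares of 0.0514%, 0.461%, 0.246% and 0.532%, in each library.

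Schwann-like cells, the glia of peripheral nerves, had at least 3 G2/M members in 2 of 65, 10 of 133, 0 of 30 and 2 of 35 cells and G2/M sums of 52.8, 1316, 48.1 and 87.1 CPM. In the young CNV library 1 of these Schwann-like cells held 7219 of the 7235 UMIs of erythroid markers in the 10 cells, and without it the sum was 1034 CPM with 9 of 132 cells. The ratio in young mice was 24.9 (16.3 to 40.4), and 34 of the 37 members compared were at least 2-fold higher against 10.4% of 9763 genes, 0 lower against 6.5%, with 2 of the 37 at 20 UMIs in the control alone. Melanocyte-like cells had 0 of 159, 13 of 199, 0 of 11 and 0 of 29 and sums of 24.2, 399, 29.5 and 31.8 CPM, and 12 of 197 cells and 393 CPM in young CNV without 2 melanocyte-like cells rich in erythroid or RPE markers. Müller glia-like cells, the radial glia of the retina, had 1 of 386, 2 of 186, 3 of 290 and 12 of 329 and sums of 35.4, 46.4, 38.0 and 305 CPM. In aged mice the Müller glia-like ratio was 8.02 (6.57 to 9.87), and 19 of the 28 members compared were at least 2-fold higher (18 of 18 G2/M, and Mcm6) against 8.45% of 13347 genes, and 0 lower against 2.53%. Of the 28 Müller glia-like members 7 reached 20 UMIs in aged control alone, and 0 of these were G2/M members, so every G2/M member compared had passed through the CNV library. Of the 12 aged CNV Müller glia-like cells 1 held 823 of the 845 UMIs of RPE markers, and without it and 3 others the class had 11 of 325 cells and 278 CPM. At the other age the ratio was 1.81 in Schwann-like cells (0.787 to 4.66) and 1.31 in Müller glia-like cells (0.956 to 1.79), and aged melanocyte-like cells had 1 and 3 G2/M UMIs. The difference between ages was not tested in these 3 classes.

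The 2 ages were also compared directly, with the same 4 libraries as the laser comparisons, so the values are set side by side only. In the control libraries the G2/M sum of the aged was 0.255 times that of the young in fibroblast-like cells (0.222 to 0.293) and 0.25 times in endothelial-like cells (0.198 to 0.314). Fibroblast-like members at least 2-fold lower in aged controls numbered 23 of 37, 18 of 22 G2/M, against 6.85% of 15627 genes, and 0 were higher against 7.04%. All 37 reached 20 UMIs in young control and 14 members did in aged control, so many passed through the library where they were higher. Endothelial-like members lower in aged controls numbered 13 of 25 against 7.21% of 12216 genes, and Gins2, a GINS subunit, was higher (3.65 times, 1.62 to 8.80) against 7.32%. Of these 25 endothelial-like members 24 reached 20 UMIs in young control, whereas 9 members did in aged control. Macrophage/monocyte-like cells had a ratio of 0.931 (0.834 to 1.04), with Ube2c the 1 of 34 members at least 2-fold lower (0.327, 0.152 to 0.646) against 5.52% of 9367 genes, and 0 higher against 7.56%. After laser the G2/M ratio of aged to young was 0.809 in fibroblast-like (0.779 to 0.840), 1.29 in endothelial-like (1.22 to 1.38), 0.611 in macrophage/monocyte-like (0.573 to 0.651), 1.14 in microglia-like (1.05 to 1.25) and 0.584 in epithelial-like cells (0.567 to 0.601).

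Cdk1 was lower in the aged than in the young CNV library in several classes. In fibroblast-like cells Cdk1 had 3.13, 14.8, 0.269 and 3.90 CPM, 0.263 times the young value after laser (0.197 to 0.346), and it was the 1 of the 40 members at least 2-fold lower there, against 4.78% of 16927 genes, and 0 were higher against 11.7%. Endothelial-like cells had 6.30, 23.1, 0 and 12.3 CPM of Cdk1 (0.531, 0.368 to 0.752), macrophage/monocyte-like cells 17.7, 21.0, 10.2 and 5.77 (0.274, 0.175 to 0.413) and epithelial-like cells 62.1, 64.1, 0 and 13.9 (0.218, 0.178 to 0.264). Over the 11 classes that could be compared the Cdk1 interval lay below 1 in 7 and above 1 in 1, with a median ratio of 0.407. Mki67 in the same contrast had intervals below 1 in 4 of 14 classes and above 1 in 6, with a median of 1.28. Uhrf1 was higher in aged mice after laser in macrophage/monocyte-like (2.17, 1.58 to 2.95), fibroblast-like (1.54, 1.18 to 1.99) and endothelial-like cells (2.81, 1.93 to 4.12). In endothelial-like cells Mki67 (2.13), Kif11 (2.43), Uhrf1 and Cdc6 (2.69, 1.32 to 5.55) were the 4 of 40 at least 2-fold higher in aged CNV, against 9.35% of 12872 genes, and 0 were lower against 4.66%. In macrophage/monocyte-like cells Uhrf1 was the 1 of 40 higher, against 8% of 13296 genes, and 8 G2/M members were lower, Cdk1 the lowest, against 5.66%.

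Pcna was lower in the aged than in the young libraries in most classes. The interval of its ratio lay below 1 in 9 of 15 classes in the controls and in 14 of 18 after laser, with medians of 0.597 and 0.546, and above 1 in 0 and 1. Non-dividing classes took part: Pcna had 99.9, 124, 39.6 and 41.4 CPM in cone-like cells and 58.5, 87.3, 28.6 and 34.5 CPM in rod-like cells. Both aged libraries were below both young libraries in these 2 classes.

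Some members were also detected in classes with few or no cells with G2/M members, or at levels that did not follow Mki67. Bub1b, the checkpoint kinase BubR1, had 37.3, 56.9, 84.5 and 67.2 CPM in cone-like cells, found in 55, 53, 324 and 152 cells, and 25.4, 40.9, 70.0 and 75.3 CPM in rod-like cells. Bipolar-like cells, the neurons behind the photoreceptors, had 0, 4.08, 7.94 and 5.05 CPM of Bub1b. In young control, young CNV and aged control the cone-like class had the highest Bub1b level of all classes, while Mki67 or Top2a were found in 0.391%, 1.49%, 0.240% and 0.704% of cone-like cells. Cdk1 had 27.8, 22.2, 12.8 and 9.02 CPM in RPE-like cells, found in 91, 45, 75 and 18 cells. Ube2c had 92.5, 58.2, 87.6 and 39.5 CPM in erythroid-like cells (80, 68, 30 and 5 UMIs), where Mki67 had 0, 1, 0 and 0 UMIs. Stmn1 had 605, 999, 601 and 399 CPM in Schwann-like cells and 223, 233, 162 and 274 CPM in Müller glia-like cells, more than in fibroblast-like cells in each library. Of the 40 members 8 overlap a protein-coding gene on the other strand (Ccna2, Nusap1, Ube2c, Cdc20, Prc1, Mcm7, Gins2 and Tk1), and the sources used here do not say whether strand was used in counting, so reads of the partner cannot be told apart there. Cdk1, Bub1b, Pcna, Mki67 and Top2a have no such partner.

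**Figure D5:**
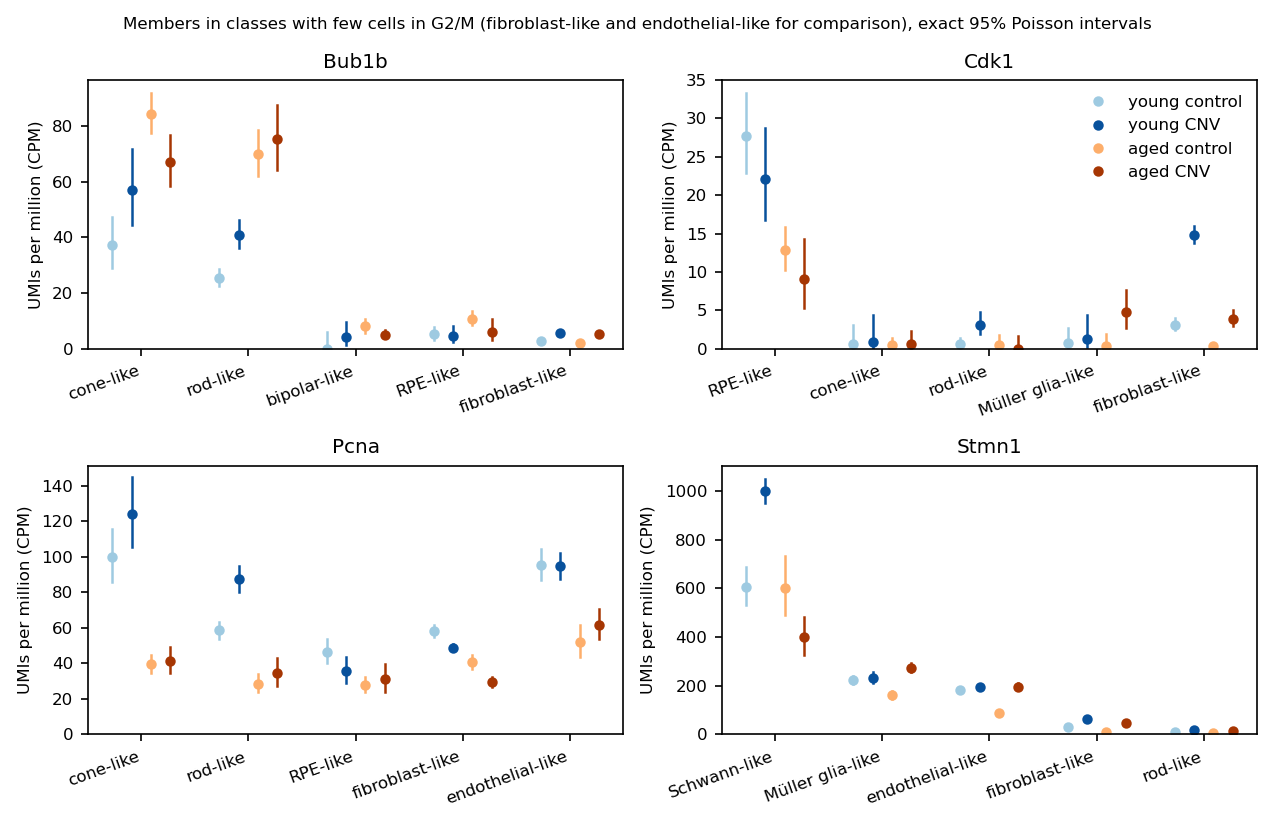
CPM of Bub1b, Cdk1, Pcna and Stmn1 by class in the 4 libraries, with exact Poisson 95% intervals. In aged control Bub1b stood at 84.5 CPM in cone-like and 70.0 CPM in rod-like cells.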

How the data were processed

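Droplet single-cell RNA sequencing was run on retina and choroid of young and aged mice, with 1 control and 1 CNV library at each age. The authors deposited raw UMI counts, not normalised, as a single matrix with 24783 genes in rows and 36701 cells in columns. Column prefixes were matched to the samples, y read as young and e as aged, and 0 columns were left unmapped. The submitters' processing notes name Cell Ranger, Seurat 4.1.1 and the build mm10. Neither a Cell Ranger version nor a gene annotation is given in the sources used here.

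Doublets were scored per library with scrublet (scanpy 1.11.5); a score above 0.2, set after the scores were seen, removed 302, 290, 246 and 272 cells. Cells were clustered together, without integration, on 2000 variable genes, 40 principal components and 20 neighbours (Leiden, resolution 1, leidenalg 0.10.2), leaving out 145 listed cell cycle genes and 83 genes correlated with them. Clusters where 30% of cells or more had Ptprc went through a second round, which gave 62 clusters in all. A cluster was named when at least 3 markers of a class stood at a log2 fold of at least 1 over the other clusters and its leading genes did not go against the name. These thresholds were settled after cluster tables were seen, and clusters without a clear class were left unnamed. UMIs were summed per class and library. CPM carry exact Poisson intervals, ratios exact conditional binomial intervals and shares exact Clopper-Pearson intervals, all at 95%. Against 0 UMIs a ratio used 3 counts per library as a floor. For a share of 0 the limit printed is 3 over the number of cells, which is lower than the Clopper-Pearson bound. Thinning drew 1000 UMIs per cell and left out 2783 shallower cells. Named members were Mki67, Top2a and Stmn1 and, per class and comparison with at least 100 member UMIs, the 3 per side whose log2 interval lay farthest from 0; others shown were added for their role, with values known. The same rule named genes of the other lists, up to 3 per class, and all genes where 5 or fewer were counted. TMM factors came from edgeR 4.0.16 (R 4.3.3), and the ratio and interval code was checked on simulated data. Python 3.11.15 and matplotlib 3.10.9 were used. The members and lists were chosen with earlier results of these data known.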

Additional observations from a re-analysis of the deposited data

Results flagged for a closer look

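In endothelial-like cells the CPM of the ages stood in opposite order in the 2 conditions, whereas the unthinned share of cells with at least 3 G2/M members did not. The share of cells with Mki67 or Top2a did stand in opposite order. So did the thinned share with at least 3 G2/M members, where the limit of aged control lay above the young control value. Over all 40 members the aged library had 0.538 times the CPM of the young one in the controls and 1.18 times after laser. Over the 25 G2/M members the ratios were 0.25 and 1.29. The difference between the conditions was not tested, since each group is 1 library, and with TMM or median-of-ratios scaling the ratio of all members after laser was 0.994 or 1.0.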

How the results depend on the processing

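No paired analysis was possible because each group is 1 library. All values here are ratios over the 40 members unless a subset is named. Main laser ratios (young, aged) were 1.92 and 2.48 in fibroblast-like, 1.65 and 3.60 in endothelial-like, 0.946 and 0.713 in macrophage/monocyte-like, 13.9 and 20 in microglia-like and 1.03 and 8.44 in epithelial-like cells. Main age ratios (controls, after laser) were 0.660 and 0.854, 0.538 and 1.18, 0.953 and 0.719, 0.719 and 1.03, and 0.0713 and 0.586 in the same order of classes. With the 25 G2/M members alone the young laser ratio was 3.61 in fibroblast, 2.91 in endothelial, 0.834 in macrophage/monocyte, 28.1 in microglia, 1.05 in epithelial. The aged laser ratio was 11.4 in fibroblast, 15.1 in endothelial, 0.547 in macrophage/monocyte, 83.7 in microglia, 25 in epithelial. The age ratio in controls was 0.255 in fibroblast, 0.25 in endothelial, 0.384 in microglia, 0.0245 in epithelial. The age ratio after laser was 0.809 in fibroblast, 1.29 in endothelial, 0.611 in macrophage/monocyte, 1.14 in microglia. With the 14 S members alone the young laser ratio was 1.13 in fibroblast, 1.37 in endothelial, 1.05 in macrophage/monocyte, 7.14 in microglia, 0.983 in epithelial. In aged mice it was 1.2 in fibroblast, 2.10 in endothelial, 1.02 in macrophage/monocyte, 7.28 in microglia, 2.75 in epithelial. Between control libraries the age ratio was 0.913 in fibroblast, 0.744 in endothelial, 0.249 in epithelial. Between CNV libraries the age ratio was 0.972 in fibroblast, 0.932 in macrophage/monocyte, 0.888 in microglia, 0.697 in epithelial. With TMM scaling the young laser ratio was 2.07 in fibroblast, 1.74 in endothelial, 1.12 in macrophage/monocyte, 1.01 in epithelial. The aged laser ratio was 0.777 in macrophage/monocyte. The age ratio in controls was 0.600 in fibroblast, 0.484 in endothelial, 0.0565 in epithelial. The age ratio after laser was 0.715 in fibroblast, 0.994 in endothelial, 0.593 in macrophage/monocyte, 0.908 in microglia, 0.455 in epithelial. With median-of-ratios scaling the young laser ratio was 2.08 in fibroblast, 1.75 in endothelial, 1.11 in macrophage/monocyte. In aged mice it was 0.776 in macrophage/monocyte. Between control libraries the age ratio was 0.608 in fibroblast, 0.491 in endothelial, 0.859 in macrophage/monocyte, 0.0575 in epithelial. Between CNV libraries the age ratio was 0.722 in fibroblast, 1.0 in endothelial, 0.598 in macrophage/monocyte, 0.895 in microglia, 0.462 in epithelial. With cells picked by their own marker UMIs the young laser ratio was 1.78 in fibroblast, 1.32 in endothelial, 1.14 in macrophage/monocyte, 0.967 in epithelial. The aged laser ratio was 2.22 in fibroblast. The age ratio in controls was 1.43 in macrophage/monocyte. The age ratio after laser was 1.44 in endothelial, 0.956 in macrophage/monocyte, 0.610 in epithelial. In cells thinned to 1000 UMIs the young laser ratio was 1.27 in fibroblast, 1.09 in endothelial, 1.02 in macrophage/monocyte, 3.92 in microglia, 0.974 in epithelial. In aged mice it was 1.40 in fibroblast, 1.79 in endothelial, 0.619 in macrophage/monocyte, 5.55 in epithelial. Between control libraries the age ratio was 0.769 in fibroblast, 0.609 in endothelial, 1.19 in macrophage/monocyte. Between CNV libraries the age ratio was 1.0 in endothelial, 2.08 in microglia, 0.481 in epithelial. With clusters made with the cell cycle genes the young laser ratio was 1.82 in endothelial, 1.36 in macrophage/monocyte, 8.69 in microglia. The aged laser ratio was 2.71 in fibroblast, 1.2 in macrophage/monocyte. The age ratio in controls was 1.10 in macrophage/monocyte. The age ratio after laser was 0.912 in fibroblast, 1.06 in endothelial, 0.973 in macrophage/monocyte, 1.76 in microglia. With predicted doublets kept the age ratio after laser was 0.557 in epithelial. Without Stmn1, Pcna and Mcm2 to Mcm7 the young laser ratio was 2.79 in fibroblast, 2.77 in endothelial, 0.847 in macrophage/monocyte. In aged mice it was 4.63 in fibroblast, 8.66 in endothelial, 0.627 in macrophage/monocyte, 33.4 in microglia, 14.2 in epithelial. Between control libraries the age ratio was 0.513 in fibroblast, 0.416 in endothelial, 0.0431 in epithelial. Between CNV libraries the age ratio was 1.30 in endothelial, 0.675 in macrophage/monocyte, 1.12 in microglia.

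The values not named moved by less than their interval. TMM factors shifted the median log2 ratio of all genes by 0.11 in fibroblast-like, 0.24 in macrophage/monocyte-like and 0.39 in microglia-like cells in the young laser comparison and by -0.24 in endothelial-like cells in the age comparison after laser. No ratio that was past 2-fold changed direction. Ratios nearer 1 did, and the cause was not tested. For macrophage/monocyte-like cells these were the young laser ratio under TMM, median-of-ratios, thinning, own markers, clusters made with the cell cycle genes and S members alone, the aged laser ratio with those clusters and with S members alone (both above 1), and the age ratio in controls under thinning, those clusters and own markers. The microglia-like age ratio after laser fell below 1 under both scalings, with S members alone and with doublets kept (0.983), the endothelial-like one with TMM, and the epithelial-like young laser ratio under thinning, own markers and S members alone. Thinned microglia-like cells gave no aged laser or control age ratio, and their own markers no young laser or control age ratio. 2 thresholds were added after the data were seen: at least 10 G2/M members in a cell, and leaving out cells with over 1% of UMIs on erythroid or RPE markers. With the former the shares moved in 23 of 32 cases, and with the latter in 0 of 32. Among the other alternatives, shares moved in 32 of 40 cases with at least 2 members and in 28 of 40 with at least 5, and counts of members in 15 of 40 with a 1.5-fold threshold, in 4 of 40 with at least 1 UMI and in 8 of 40 with TMM. Thinning moved 55 of 60 shares, clusters made with the cell cycle genes 3 of 60 and doublets kept 0 of 60. Few microglia-like cells and 30 aged control epithelial-like cells limit those ratios.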
